A study of Danio rerio with 204 samples.

Results

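Fenamidone, picoxystrobin and benodanil are fungicides directed at the mitochondrial respiratory chain, and their effects on gene expression were described in whole zebrafish embryos at 48 hpf (hours post fertilization). Fenamidone, an imidazolinone, and picoxystrobin, a strobilurin, act at the Qo site of complex III, whereas benodanil, a benzanilide, acts on complex II. The comparisons were chosen by agrichemical name from a deposited table of 45 agrichemicals and 8546 genes, in which 256 genes (3% of the table) were differentially expressed genes (DEGs) in at least 1 of the 3. Wild-type embryos of the Tropical 5D line had their chorions removed and were exposed from 6 hpf, without renewal, to a nominal 60 µM fenamidone, 0.75 µM picoxystrobin or 8 µM benodanil. Each agrichemical is represented by 4 pools of 8 embryos. The control embryos received the DMSO vehicle alone, given as 1% in the labels and 0.5% in the methods. The labels list 24 control libraries, which carry 23 different dates, and controls of separate dates were joined into 1 global control for all 45 agrichemicals.

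Complex II (succinate dehydrogenase) takes electrons from succinate, and complex III takes them from reduced ubiquinone at its Qo site and passes them to cytochrome c. Complexes I, III and IV move protons across the inner mitochondrial membrane, and complex V (ATP synthase) uses the return flow to make ATP. Blocking this chain is known to slow ATP production, to raise the leakage of electrons to oxygen and, in many cells, to shift metabolism toward glycolysis. Developing muscle, brain and heart, all present in the embryo at 48 hpf, are tissues with a high demand for ATP.

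For each gene and agrichemical the table gives a log2 fold change over the control and a q-value, and a DEG is a gene with a listed q of at most 0.05. Listed q-values have 2 decimals unless they are under 0.0001, so a DEG with a listed q of 0 lies between about 0.0001 and 0.005. Genes that missed the threshold are set to 0 in both columns, and genes that were DEGs in no agrichemical were left out of the table, which makes the percentages given here higher than they would be over all genes tested. The table holds no values per pool, no standard errors and no counts. The spread between pools and the depth of each library are therefore unknown, the embryo label could not be checked against marker genes, and the q-value is the sole measure of error beside a fold change. It reflects the spread between the pools of an agrichemical and between control libraries of 23 different dates. It does not separate a difference of date from that of the agrichemical. The pools of an agrichemical carried consecutive or nearly consecutive library numbers, so that agrichemical and library number cannot be told apart. In whole-embryo RNA, fewer cells of a type and less RNA per cell cannot be told apart. Concentrations differed, and none of the 3 pairs of compounds could be tested against each other, so their values stand side by side.

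Benodanil had 146 DEGs (1.71% of the table), fenamidone 100 (1.17%) and picoxystrobin 42 (0.491%), which placed them 25th, 28th and 35th among the 45 agrichemicals by number of DEGs. With benodanil, 85 DEGs were higher than control (0.995% of the table) and 61 lower (0.714%). The fenamidone DEGs were divided nearly evenly, with 51 higher (0.597%) and 49 lower (0.573%). With picoxystrobin, 28 genes were higher (0.328%) and 14 lower (0.164%), and the listed fold changes were larger. The picoxystrobin median absolute log2 fold change was 2.15, beside 1.11 for fenamidone, 1.06 for benodanil and 0.97 for all 25457 calls of the table. Log2 fold changes of 2 or more in size were listed for 21 of the 42 picoxystrobin DEGs, 7 of the fenamidone DEGs and 13 of the benodanil DEGs. A q under 0.0001 was listed for 11 fenamidone DEGs, 8 benodanil DEGs and no picoxystrobin DEG, whereas a q of at most 0.01 was listed for 40% of the fenamidone, 47.6% of the picoxystrobin and 50% of the benodanil DEGs. The smallest absolute log2 fold change that was called was 0.83 with picoxystrobin, 0.49 with fenamidone and 0.28 with benodanil.

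**Figure D1:**
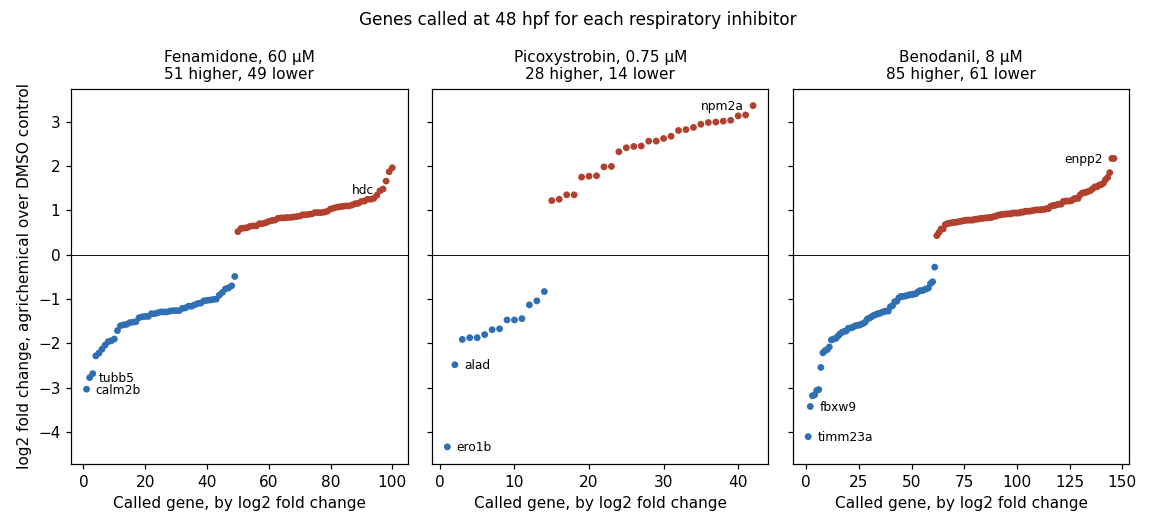
Log2 fold change over the DMSO control (vertical axis) of every DEG of fenamidone (60 µM), picoxystrobin (0.75 µM) and benodanil (8 µM), ordered from lowest to highest (horizontal axis). Each point is 1 gene, red where higher and blue where lower than control, and the picoxystrobin points leave the widest gap around 0, since no absolute value was under 0.83.

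A set of 3 genes were DEGs with all of the inhibitors, and each was lower than control. *tubb5* (GeneID 386701), which encodes a beta-tubulin of microtubules, had log2 fold changes of -2.77 with fenamidone (q = 1.03e-05), -1.67 with picoxystrobin (q = 0.03) and -2.08 with benodanil (listed q of 0). *atp5f1b* (GeneID 554135), which encodes the catalytic beta subunit of ATP synthase, had -1.42 (q = 0.03) with fenamidone, -1.69 (q = 0.02) with picoxystrobin and -1.65 (q = 0.01) with benodanil. *hmgn2* (GeneID 569904), which encodes a nucleosome-binding protein, had -1.39 (q = 0.04) with fenamidone, -1.80 (q = 0.01) with picoxystrobin and -1.64 (q = 0.01) with benodanil. None of these genes belonged to these inhibitors alone. Across the 45 agrichemicals, *tubb5* was a DEG in 12 and lower in each of them, *atp5f1b* was lower in 16 and higher in 2, and *hmgn2* was lower in 19 and higher in 2. Tubulins and HMGN proteins belong to families with close copies, and reads that fit several copies may have been assigned unevenly.

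A further 26 genes were DEGs with 2 of the inhibitors, which gives 29 with at least 2. These genes make up 27% of the fenamidone DEGs, 16.7% of the picoxystrobin DEGs and 18.5% of the benodanil DEGs. Since the comparisons used the same control libraries, these counts are an inventory and not evidence of a common response. Of the 100 fenamidone DEGs, 25 were also benodanil DEGs, where benodanil DEGs are 1.71% of the table. Picoxystrobin had 5 of its 42 DEGs (11.9%) in common with each of them, where fenamidone DEGs are 1.17% of the table. The lists differ in length, and the overlaps were not tested against each other. Methomyl, the agrichemical nearest to picoxystrobin by library number, called 15 of the 42 picoxystrobin DEGs (35.7%). These were 2.8% of its own 536 DEGs, where picoxystrobin DEGs are 0.491% of the 8546 genes of the table. Difenoconazole, the next nearest, called 5 of the 42 (11.9%), which were 0.356% of its 1406 DEGs. Nearest to fenamidone were dazomet with 33 DEGs and Difpas-pyrazole with 149, which called 4% and 12% of its DEGs. These were 12.1% and 8.05% of their own DEGs, where fenamidone DEGs are 1.17% of the table. Nearest to benodanil were carbofuran with 195 DEGs and tefluthrin with 75, which called 8.9% and 6.16% of its DEGs. These were 6.67% and 12% of their own DEGs, where benodanil DEGs are 1.71% of the table. The part of library number in these overlaps was not tested. Beyond the 3 genes above, fenamidone and picoxystrobin, which act on the same complex, had *calm2b* and *actc1b* in common. *calm2b*, which encodes calmodulin, the calcium sensor, had the lowest fenamidone value at -3.03 (listed q of 0) and -1.87 (q = 0.03) with picoxystrobin. *actc1b*, a striated muscle actin, had -1.09 (q = 0.01) with fenamidone and -1.04 (q = 0.05) with picoxystrobin. Neither gene belonged to these compounds alone. In the whole table *calm2b* was lower in 8 agrichemicals and higher in none, and *actc1b* was lower in 13 and higher in 3. Picoxystrobin and benodanil had *tcf7l2* in common, a transcription factor of the Wnt pathway, with -1.87 (q = 0.05) and -2.54 (q = 0.01), and the unnamed GeneID 110440174, with -1.91 and -1.72 (both listed q of 0).

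Several of the genes that were lower with both fenamidone and benodanil carried very small q-values. *nr6a1a*, an orphan nuclear receptor, had log2 fold changes of -1.16 with fenamidone (q = 8.68e-06) and -1.43 with benodanil (q = 4.2e-09). For *pmfbp1*, known in mammals from the neck of the sperm, they were -1.02 (q = 8.77e-06) with fenamidone and -1.40 (q = 4.94e-11) with benodanil. For *nme4*, whose mammalian product is a nucleoside diphosphate kinase of mitochondria, they were -1.26 (q = 5.14e-05) with fenamidone and -1.52 (q = 2.4e-07) with benodanil. These genes were lower in every agrichemical that called them, which numbered 15 for *nr6a1a*, 10 for *pmfbp1* and 14 for *nme4*. Larger changes were listed for the lens crystallin gene *crygm2d14*, with -2.22 (q = 0.01) for fenamidone and -3.04 (listed q of 0) for benodanil, and for *sumo3a*, a ubiquitin-like protein modifier, with -1.96 (q = 0.03) and -3.18 (listed q of 0). The crystallin belongs to a tandem family of near-identical genes, so its reads may be shared with copies.

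Of the 29 genes, *asph* was the one called in no further agrichemical. It encodes an aspartate beta-hydroxylase of the endoplasmic reticulum and was -2.13 with fenamidone (q = 0.03) and -2.14 with benodanil (q = 0.05). *jtb* was called in 1 further agrichemical and had -1.58 (q = 0.03) with fenamidone and -1.92 (q = 0.01) with benodanil. The genes that were higher with both had smaller changes, from 0.50 for *zgc:153372* with benodanil to the fenamidone value of *hdc*. *hdc*, which encodes the enzyme that makes histamine, was 1.48 (q = 6.8e-07) with fenamidone and 0.90 (q = 0.01) with benodanil. *abcg2c*, an ATP-binding cassette transporter of the family that exports foreign compounds, was 2.14-fold higher with fenamidone and 2.31-fold with benodanil (both listed q of 0). *pdia3*, a disulfide isomerase that assists protein folding in the endoplasmic reticulum, was 0.96 (q = 0.04) and 1.13 (q = 0.01), while *cracd*, a regulator of actin capping, was 0.95 (q = 0.01) and 1.01 (listed q of 0).

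**Figure D2:**
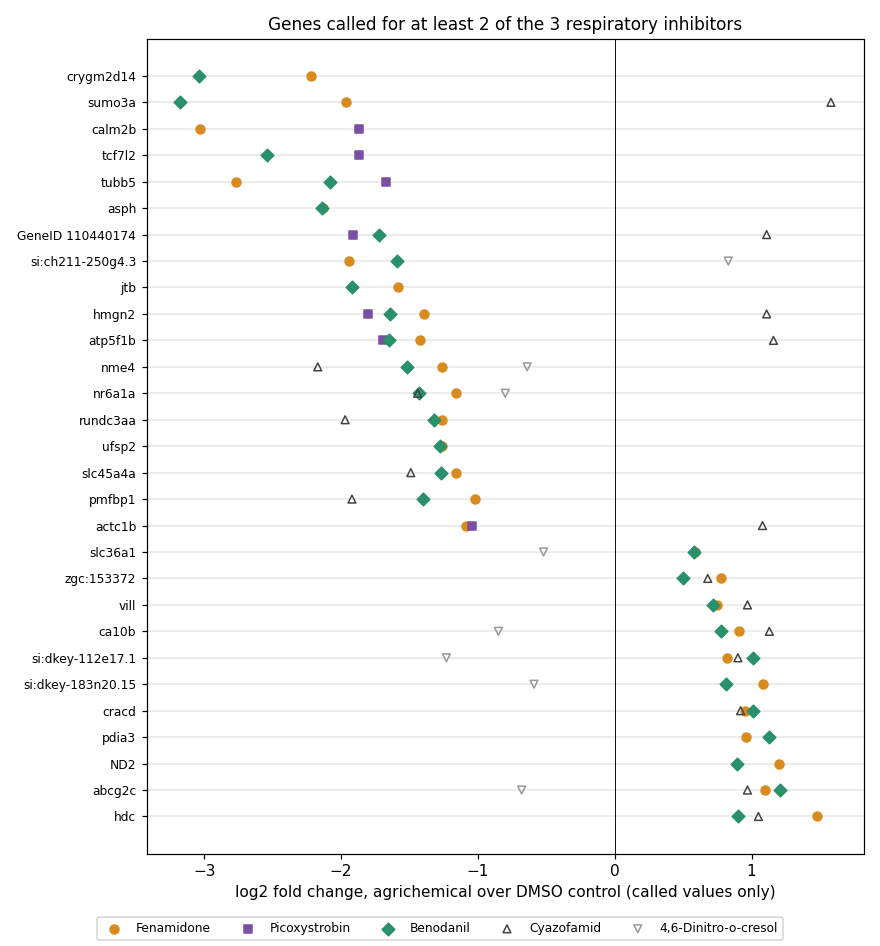
Log2 fold change over the DMSO control (horizontal axis) of the 29 genes that were DEGs with at least 2 of fenamidone, picoxystrobin and benodanil (vertical axis), with cyazofamid and 4,6-dinitro-o-cresol as open symbols, and only called values drawn. *sumo3a* stands at -3.18 with benodanil and at 1.58 with cyazofamid, and *hdc* at 1.48 with fenamidone is the point farthest to the right among the 3 inhibitors.

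Cyazofamid and 4,6-dinitro-o-cresol also act on mitochondria, and their values were set beside those of the 29 genes. Cyazofamid, given at 16 µM, acts on the Qi site of complex III, and 4,6-dinitro-o-cresol carries protons across the membrane and so uncouples respiration from ATP synthesis. Lower with cyazofamid were *nme4* (-2.17, q = 6.56e-16), *pmfbp1* (-1.92, q = 8.3e-21) and *nr6a1a* (-1.44, q = 2.42e-09), together with *rundc3aa* (-1.97) and *slc45a4a* (-1.49), all of which were also lower with fenamidone and benodanil. Higher with cyazofamid, as with fenamidone and benodanil, were *hdc* (1.05), *abcg2c* (0.97), *ca10b* (1.13), *cracd* (0.92), *vill* (0.97), *zgc:153372* (0.68) and *si:dkey-112e17.1* (0.90). In contrast, *atp5f1b* (1.16, q = 0.04) and *hmgn2* (1.11, q = 0.05) were higher than control with cyazofamid, and so were *sumo3a* (1.58, q = 0.01), *actc1b* (1.08, listed q of 0) and GeneID 110440174 (1.11, q = 0.05). *tubb5* was not a DEG with either agrichemical. With 4,6-dinitro-o-cresol, *nr6a1a* (-0.80, listed q of 0) and *nme4* (-0.64, q = 0.04) were lower, as with fenamidone and benodanil. Also lower were *abcg2c* (-0.68, q = 0.04), *ca10b*, a carbonic anhydrase-related gene (-0.85, listed q of 0), and *slc36a1*, a proton-coupled amino acid transporter (-0.52, q = 0.02). So were *si:dkey-112e17.1* (-1.23, q = 1.57e-05) and *si:dkey-183n20.15* (-0.59, q = 0.04). With fenamidone and benodanil, the genes from *abcg2c* on were higher, at 0.91 and 0.78 for *ca10b* and 0.59 and 0.58 for *slc36a1*. Conversely, *si:ch211-250g4.3* was higher with 4,6-dinitro-o-cresol (0.83, q = 0.03) and lower with fenamidone (-1.94, listed q of 0) and benodanil (-1.59, q = 0.01). Cyazofamid had a median library number of 667.5, and 4,6-dinitro-o-cresol had 388. The higher calls of *atp5f1b* were at 417.5 and 667.5, and those of *hmgn2* and *sumo3a* at 647.5 and 667.5. The lower calls of *slc36a1* were at 388 to 622.5 and its higher calls at 7.5 to 323.5. For *ca10b* and *abcg2c* the directions overlapped. Their lower calls were at 388 to 647.5 and 388 to 492.5, and the higher calls of both ran from 7.5 to 667.5. Compound and library number cannot be told apart here, and whether these inhibitors differ from cyazofamid or 4,6-dinitro-o-cresol was not tested.

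The share of called genes among those of the respiratory chain and of central metabolism was near that of the whole table with picoxystrobin and benodanil and above it with fenamidone, and these differences were not tested. Over 14 lists that cover the respiratory complexes, carbon metabolism, hypoxia, mitochondrial upkeep and oxidative stress, 8 of 223 genes (3.59%) were DEGs in at least 1 comparison, against 3% of the whole table. Fenamidone called 6 of the 223 (2.69%, against 1.17% of the table), picoxystrobin 1 (0.448%, against 0.491%) and benodanil 4 (1.79%, against 1.71%). The genes of the inhibited complexes that the table holds, *sdhb* for complex II and *CYTB*, *uqcrc1* and *uqcc1* for complex III, were DEGs with none of the inhibitors. The same held for the 13 genes of complex IV, the 16 of glycolysis and lactate and the 17 of the hypoxia list. That list includes the hypoxia factors *hif1aa*, *epas1a* and *epas1b* themselves. It held also for the 13 genes of the ATF4 stress list, which mixes targets with the upstream kinases *eif2ak2*, *eif2ak3* and *eif2ak4*. Likewise uncalled were the 31 genes of mitochondrial ribosome and translation and the 20 of oxidative stress and glutathione. So were the 14 of fatty acid oxidation and ketones, among them fatty acid binding proteins. All these uncalled genes are in the table because another agrichemical changed them. A gene that was not called has no value here, so small changes in it cannot be seen.

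The complex I genes that were called were all higher than control. *ND2*, a mitochondrially encoded subunit, had log2 fold changes of 1.20 with fenamidone (listed q of 0) and 0.89 with benodanil (q = 0.03). *ND1*, its neighbour on the mitochondrial genome, had 1.01 with benodanil (listed q of 0), and the assembly factor *ndufaf1* had 0.95 with fenamidone (q = 0.03). They were 3 of the 21 complex I genes in the table (14.3%, against 3% of all its genes), which was not tested. Across the 45 agrichemicals, *ND2* was higher in 5 and lower in 2, and *ND1* and *ndufaf1* were each higher in 4 and lower in 4. The higher calls of *ndufaf1* had median library numbers of 7.5 to 323.5 and the lower calls 388 to 492.5. In complex V, *atp5f1b* alone of 8 genes was called, and it was lower with each inhibitor. With fenamidone, *tomm6*, part of the import pore of the outer membrane (1.21, listed q of 0), was higher, and *pcxb*, a pyruvate carboxylase (-0.49, q = 0.01), was lower. The lowest benodanil value belonged to an import gene, *timm23a* (GeneID 798429), which encodes a channel protein of the inner membrane translocase. It was -4.10 (q = 1.62e-15), or 17.1-fold lower. The related gene *timm23b* is also in the table and was a DEG with none of the inhibitors. *timm23a* was lower in 9 agrichemicals and higher in 1, and *tomm6* was higher in 7 and lower in 4.

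**Figure D3:**
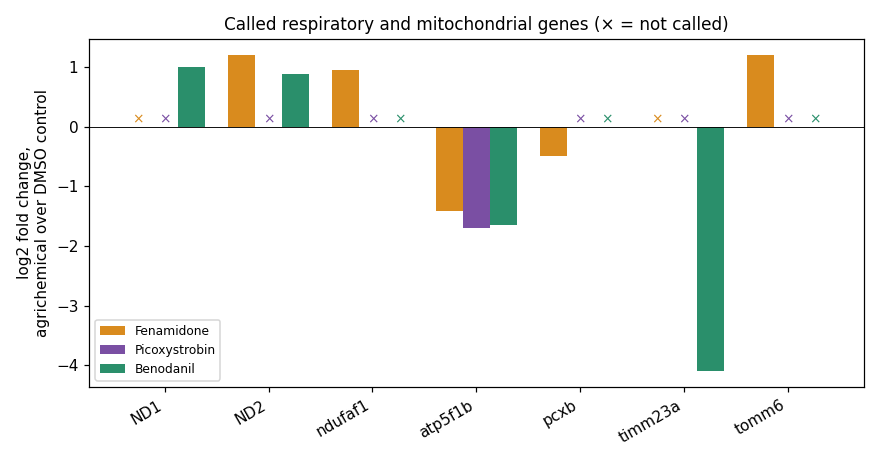
Log2 fold change over the DMSO control (vertical axis) of 7 genes from the respiratory complex, carbon metabolism and mitochondrial import lists that were DEGs with fenamidone, picoxystrobin or benodanil (horizontal axis), where × marks a gene that was not called. *atp5f1b* has a bar for each of the 3 inhibitors, all below 0, and *timm23a* reaches -4.10 with benodanil.

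Other mitochondrial genes outside these lists were noted after their values were seen. Higher with fenamidone were *mto1*, which modifies mitochondrial tRNAs (1.12, listed q of 0), *d2hgdh*, a dehydrogenase of D-2-hydroxyglutarate (0.84, q = 0.03), and *trak2*, an adaptor that couples mitochondria to kinesin (0.85, q = 0.03). Lower with benodanil was *sirt3*, which encodes a mitochondrial protein deacetylase (-1.35, q = 0.01). The mitochondrial genome contributed 24 genes to the table, of which 3 were called with fenamidone (12.5%, against 1.17% of the table) and 2 with benodanil (8.33%, against 1.71%), and this group too was chosen after its values were seen. Besides *ND2*, the tRNA genes *trnQ* (-0.85, q = 0.05) and *trnS1* (0.64, q = 0.05) were called with fenamidone. *trnQ* lies on the opposite strand to *ND1* and *ND2*, and which strand was counted is not given in the sources used here, so reads of a tRNA and of its neighbours may not be told apart.

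A few muscle genes were lower with fenamidone and picoxystrobin, and also in other agrichemicals. Of 78 sarcomere and muscle genes, 4 were called with fenamidone (5.13%, against 1.17% of the table), 2 with picoxystrobin (2.56%, against 0.491%) and none with benodanil. The median log2 fold change of the 4 was -1.32, beside -1.29 for all lower fenamidone DEGs. With fenamidone these were *mylpfa*, a fast muscle myosin light chain (-1.57, listed q of 0), *myhz1.2*, a fast myosin heavy chain (-1.51, q = 0.02), *tpma*, a tropomyosin (-1.13, q = 0.03), and *actc1b*. With picoxystrobin they were *actc1b* and *myhz1.1* (-1.47, q = 0.02), a close copy of *myhz1.2* that may share reads with it. In the whole table *mylpfa* was lower in 16 agrichemicals and higher in 2, and *tpma* lower in 8 and higher in 3. *myhz1.2* was lower in 7 and higher in 1, and *myhz1.1* lower in 7 and higher in 3. For these genes, but not for *actc1b*, every lower call had a lower library number than every higher call, which was not tested. By contrast *cmlc1*, named as a cardiac myosin light chain and outside the list, was higher with picoxystrobin (2.62, q = 0.01). The difference between compounds in these counts was not tested, since a gene that just missed the threshold has no value.

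The microtubule list held 75 genes, of which 3 were called with fenamidone (4%, against 1.17% of the table), 2 with picoxystrobin (2.67%, against 0.491%) and 2 with benodanil (2.67%, against 1.71%). Besides *tubb5*, *tuba1c*, an alpha-tubulin (-1.29, q = 0.01), and *dynlrb1*, a light chain of the dynein motor (-2.68, q = 0.02), were lower with fenamidone. *tube1*, the epsilon-tubulin of centrioles, was lower with picoxystrobin (-1.13, q = 0.03), and *kif5c*, a kinesin heavy chain of neurons, was higher with benodanil (0.84, q = 0.02). Of 55 genes listed for the cell cycle, replication and p53, *hmgn2* and *hmgb1b* were called with at least 1 inhibitor (3.64%, against 3% of the table). *hmgb1b*, which encodes a DNA-bending protein, was -2.28 with fenamidone (q = 0.01).

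Of 297 synapse and ion channel genes, 6 were DEGs with benodanil, 3 higher and 3 lower (2.02%, against 1.71% of the table), 2 with fenamidone (0.673%, against 1.17%) and none with picoxystrobin. These shares were near or below those of the whole table. Higher with benodanil were the serotonin-gated channel *htr3a* (1.41, q = 0.01), the muscarinic receptor *chrm4a* (0.96, q = 0.01) and the serotonin transporter *slc6a4a* (0.94, q = 0.05). Lower were the calcium-activated potassium channel *kcnn2* (-2.16, listed q of 0), the glutamate receptor subunit *grin2da* (-0.97, q = 0.05) and the vesicle protein gene *syn2b* (-0.94, q = 0.03). The benodanil list also included the peptide hormone genes *tac1* (tachykinin, 1.45, listed q of 0), *pth4* (1.14, q = 0.02) and *sst5* (0.80, q = 0.05), all higher. Across agrichemicals, *tac1* was higher in 4 and lower in none, *pth4* higher in 5 and lower in 6, and *sst5* higher in 4 and lower in 4. For *pth4* and *sst5*, every higher call had a lower library number than every lower call. Lower with fenamidone were the serotonin receptor *htr1fb* (-2.04, q = 0.02), the potassium channel *kcnq5a* (-0.75, q = 0.02) and *elavl3*, an RNA-binding protein of neurons (-0.70, q = 0.03).

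The other lists contributed few genes each. Their shares, given beside those of the whole table, rest on few genes and were not tested. Fenamidone and benodanil each called 1 of 44 cytochrome P450, conjugation and drug transport genes (2.27%), *abcg2c*. They also called 1 of 44 heat shock and folding genes (2.27%), *pdia3*, and 1 of 29 eye and lens genes (3.45%), *crygm2d14*. Among 150 small GTPase regulators, picoxystrobin called 1 (0.667%) and benodanil 2 (1.33%). Among 85 translation genes, fenamidone called 1 (1.18%). Of 93 extracellular matrix genes, 1 was called with fenamidone (1.08%, against 1.17% of the table) and 3 with benodanil (3.23%, against 1.71%). *thbs3a*, a thrombospondin, was 2.14-fold higher with fenamidone (q = 8.77e-06). With benodanil, the basement membrane collagen *col4a5* (-1.33, q = 0.04) and *postnb*, a periostin (-1.66, q = 0.05), were lower and the laminin *lama1* (0.83, q = 0.01) was higher. Of 46 plasma protein genes of liver and yolk, 1 was called with benodanil (2.17%, against 1.71% of the table). This was *apoa2*, an apolipoprotein, which was lower (-3.16, q = 0.01). Among 19 heme genes, 1 was called with picoxystrobin (5.26%, against 0.491% of the table) and 1 with fenamidone (5.26%, against 1.17%). *alad*, the second enzyme of heme synthesis, was lower with picoxystrobin (-2.48, q = 0.02). *epb41a*, a protein of the red cell membrane skeleton, was higher with fenamidone (0.52, q = 0.02). In 25 epidermal genes, 1 was called with fenamidone (4%, against 1.17% of the table), the keratin gene *krt4*, which was lower (-1.27, q = 0.02). Of 53 inflammation and complement genes, 2 were called with benodanil (3.77%, against 1.71% of the table). These were the chemokine *cxcl13* (0.92, q = 0.02) and the receptor *il20ra* (0.98, q = 0.05), both higher. None of the 14 circadian, 16 immediate early, 24 amino acid and nucleotide, and 17 sterol and lipid synthesis genes was called with any inhibitor. The same was true of the 4 genes of the aryl hydrocarbon receptor pathway. With 3% of the table called with at least 1 inhibitor, lists this small can easily hold no DEG.

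The highest picoxystrobin genes had few calls elsewhere. *npm2a*, a nucleoplasmin of the egg and early embryo, was 3.36 (listed q of 0), or 10.3-fold higher, and was a DEG in no other agrichemical. *borcs5*, a subunit of the BORC complex that positions lysosomes, was 2.98 (listed q of 0) and was likewise called in no other. The DEGs *tlx3b*, a homeobox factor of sensory and hindbrain neurons (1.98, q = 0.04), *rpap1*, an RNA polymerase II associated protein (2.44, q = 0.03), and *cmlc1* were also called here alone. *rrh*, which encodes the opsin peropsin (2.56, q = 0.01), and the kinase-like gene *pimr60* (2.80, q = 0.01) each had 1 further agrichemical. *lsm5*, part of an RNA-processing ring, was higher (1.78, listed q of 0) and was higher in 7 agrichemicals. *rgs7bpa* (1.35, listed q of 0) and *rnf180a* (1.75, q = 0.05) are adjacent in the annotation and were both higher. Of the lower genes, *ero1b*, an oxidase that forms disulfide bonds in the endoplasmic reticulum, had the lowest value at -4.33 with a q of 0.05, so that this large fold change was at the edge of the threshold.

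The highest fenamidone value was 1.96, of GeneID 101883911 (q = 5.55e-05). Among the genes with a descriptive name, the highest, *hdc*, was followed by *dvl1a*, a Wnt pathway adaptor (1.44, q = 1.85e-06), and *ptbp2a*, a splicing regulator of neurons (1.34, q = 0.01). *etv5b*, an ETS factor downstream of FGF signals, was 1.16 (q = 0.05). *mfge8a*, a secreted protein that bridges dying cells to phagocytes, was lower at -1.90 (q = 1.03e-05) and was the DEG called most widely, lower in 22 agrichemicals and higher in 1. With benodanil, *enpp2* (autotaxin), which makes lysophosphatidic acid, was 2.17 (q = 2.61e-05), or 4.5-fold higher, and this gene was higher in 8 agrichemicals and lower in none. *svip*, a small inhibitor of endoplasmic reticulum degradation, was 1.85 (listed q of 0) and *rab10*, a GTPase of vesicle transport, was 1.39 (q = 2.4e-07). Developmental regulators higher with benodanil were *ebf2* (1.20, q = 6.3e-05), *ihha*, an Indian hedgehog ligand (1.04, listed q of 0), and the Wnt antagonist *dkk2* (1.00, q = 0.05). Other regulators were lower with benodanil, among them *ebf3a* (-0.90, q = 0.02), *nfia* (-0.65, listed q of 0), *nfixa* (-0.77, q = 0.05) and, as above, *tcf7l2* and *nr6a1a*. No count by direction was made for this group. *fbxw9*, a substrate receptor of ubiquitin ligases, was -3.42 with benodanil (q = 0.02) and was called in no other agrichemical.

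Most of these DEGs were genes that other agrichemicals called too. A fenamidone DEG was called in a median of 8 agrichemicals, a benodanil DEG in 6 and a picoxystrobin DEG in 2. The like value over all 25457 calls of the table, in which a gene counts once for each of its calls, was 5. No other agrichemical called 14 of the 42 picoxystrobin DEGs (33.3%), 16 of the 146 benodanil DEGs (11%) and 5 of the 100 fenamidone DEGs (5%), beside 14.3% of all calls of the table. At least 10 agrichemicals called 40 of the fenamidone DEGs (40%), 42 of the benodanil DEGs (28.8%) and 10 of the picoxystrobin DEGs (23.8%), beside 15.8% of all calls. These counts depend on the shared controls, and no error is attached to them.

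**Figure D4:**
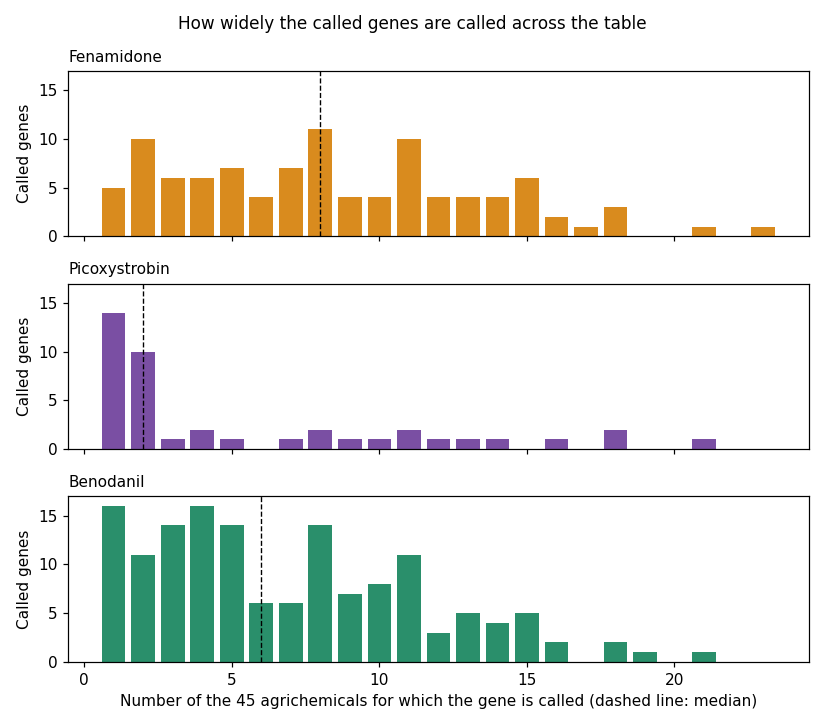
Number of DEGs (vertical axis) of fenamidone, picoxystrobin and benodanil by the number of the 45 agrichemicals in which each was called (horizontal axis), with the median as a dashed line. The tallest picoxystrobin bar is at 1 agrichemical, with 14 genes, and the medians stand at 8 for fenamidone, 2 for picoxystrobin and 6 for benodanil.

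The library number in the sample labels, the one batch-like label that covers all agrichemicals, moved with the direction of many of these genes. Fenamidone had library numbers 6 to 9, benodanil 196 to 199 and picoxystrobin 261 to 264, while the control libraries ran from 5 to 662. *atp5f1b* was lower in 16 agrichemicals with median library numbers of 7.5 to 323.5 and higher in 2, at 417.5 and 667.5. *slc36a1* showed the reverse order, being higher in 7 agrichemicals at 7.5 to 323.5 and lower in 8 at 388 to 622.5. *nr6a1a* was lower in agrichemicals from 7.5 to 667.5. Of 105 DEGs of the inhibitors that were called in at least 8 agrichemicals, 81 were lower in some and higher in others. For 46 of these 81 genes (56.8%), a count made after the pattern was seen, the library numbers of the lower and the higher calls did not overlap, with the lower calls at the lower numbers in 15 genes and at the higher numbers in 31. Over all genes of the table called as widely and in both directions, this was so for 329 of 655 (50.2%). Of these 329, the lower calls were at the lower numbers in 54 genes and at the higher numbers in 275. Lower calls at the lower numbers were thus a larger part for the inhibitors' DEGs (15 of 46) than for the table (54 of 329). The difference was not tested. A gene with a single call in 1 direction can easily show no overlap, and with at least 2 calls in each direction the counts were 36 of 64 (56.2%) and 265 of 579 (45.8%). The part of library number in the results was not tested, and within-batch values could not be computed because the table has no values per library.

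**Figure D5:**
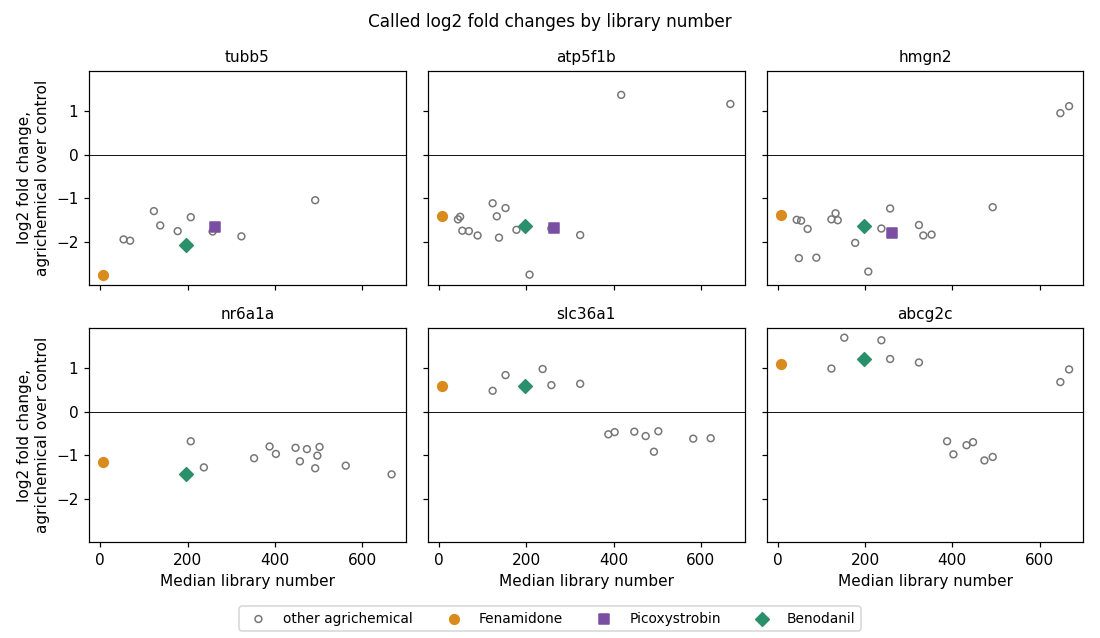
Log2 fold change over the DMSO control (vertical axis) in each agrichemical that called the gene, by its median library number (horizontal axis), for 6 genes, with fenamidone, picoxystrobin and benodanil as filled symbols. *slc36a1* lies above 0 up to library number 323.5 and below 0 from 388, whereas *nr6a1a* lies below 0 throughout.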

How the data were processed

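RNA from whole embryos was sequenced as 100 bp single-end reads from directional polyA libraries, in 204 libraries, of which 180 belong to 45 agrichemicals and 24 to the DMSO control. The authors trimmed the reads, aligned them to GRCz11 with STAR, assigned them to whole genes including introns with HTSeq, and used DESeq2 to compare each agrichemical with a global control (versions and the strand setting are not given in the sources used here). The methods name 23 control samples, and how this count relates to the 24 control libraries is not stated. The authors' DESeq2 output gave the deposited log2 fold changes. It also gave the deposited q-values, all at most 0.05, a threshold that the methods write as a p-value. These finished comparisons are the only values analysed here, in 90 columns, so no test was run and no values per pool, errors or depths were at hand.

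DEGs were counted by sign, gene and list with pandas 2.3.3 in Python 3.11.15. GeneIDs were matched to RefSeq symbols of GRCz12tu, which differs from the build of the authors and was used for names and neighbours only, with 7989 of 8546 matched (93.5%). The rule named the genes called in at least 2 of the comparisons, the 12 highest and 12 lowest named genes of each comparison, every called member of the respiratory, metabolic and detoxification lists and up to 5 called members of each other list. Not every such gene is printed, 1 called gene of the mitochondrial lists is not reported here, and others are named after their values were seen. These are the mitochondrial genes outside the lists, *pth4*, *sst5*, *elavl3*, *ebf2*, *ebf3a*, *nfia*, *nfixa*, *ihha*, *dkk2* and *cmlc1* as a muscle gene. The members and the 33 lists were chosen with earlier results of these data known, and the symbol patterns of the lists were corrected after a first look. Alternatives were a q of at most 0.01, absolute log2 fold changes of at least 1 or 0.58, named genes only, and leaving out the 9 agrichemicals with the most calls.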

Additional observations from a re-analysis of the deposited data

How the results depend on the processing

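Keeping only listed q-values of at most 0.01 left 40 fenamidone, 20 picoxystrobin and 73 benodanil DEGs, and 14 of the 29 genes called in at least 2 comparisons. None of *tubb5*, *atp5f1b* and *hmgn2* then remained a DEG in all 3. A minimum absolute log2 fold change of 1 left 64 fenamidone DEGs, 82 benodanil DEGs and 19 genes called in at least 2, and 41 picoxystrobin DEGs. A minimum of 0.58 or named genes only kept each of these counts within 1.5 times. The share of DEGs higher than control was 51% for fenamidone, 66.7% for picoxystrobin and 58.2% for benodanil. With this minimum of 1 on the log2 scale it was 32.8% for fenamidone and 47.6% for benodanil, and with the stricter q it was 85% for picoxystrobin. Without the 9 agrichemicals with the most calls, the median number of agrichemicals per DEG was 4 for fenamidone, 1 for picoxystrobin and 3 for benodanil, and for picoxystrobin it was 1 also with the stricter q. No paired analysis was possible because the table has no values per pool, and for the same reason no pool could be left out and another normalization, filter or tool could not be run. The depth behind each call is unknown.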
